A study of Homo sapiens with 6 samples.

Results

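The replication-dependent histone genes were examined in a native ChIP-Seq (nChIP-Seq) study of the protease MMP-2 in U2OS cells. They were taken as all protein coding genes of the GRCh37 annotation whose symbols place them in the H1 (H1-1 to H1-6), H2AC, H2BC, H3C and H4C families. The rule took 66 of 20163 protein coding genes, namely 6 H1, 17 H2A, 16 H2B, 13 H3 and 14 H4 genes, of which 64 carried a current symbol and 2 (H2AC18 and H4C2) an older one. U2OS is a human osteosarcoma cell line, and all samples were grown to 2 days past confluence. The ProMMP2-3xHA cells are a U2OS line stably transduced with full-length MMP-2 that ends in 3 HA tags, while wild type (WT) cells are untagged. Both lines make their own untagged MMP-2. The HA antibody was used on 3 replicates of the ProMMP2-3xHA cells and, among these samples, on 1 library of WT cells. The H3K4me3 antibody was used on 1 library of each line. No peaks of the HA antibody in WT cells were used here. The HA replicates are independent biological experiments by the study's account, and whether the stable line is a single clone is not given in the sources used here.

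Replication-dependent histone genes supply the histones that package newly made DNA. Core histones H2A and H2B form one dimer of the nucleosome and H3 and H4 another, while H1 binds the linker DNA between nucleosomes. These genes are short, lack introns, lie in clusters and are read mainly in S phase, and their transcripts end in a stem-loop in place of a poly(A) tail. H3K4me3 marks the promoters of active genes, and the H3 N-terminus that carries it is the part of the histone that MMP-2 can remove.

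The genes fell into 7 blocks, set apart wherever neighbouring start sites were more than 200 kb from each other. Chromosome 6 held 52 genes in 4 blocks, which are block 1 (H2AC1 and H2BC1), block 2 (29 genes, chr6:26017260-26285866), block 3 (5 genes, chr6:27093676-27115341) and block 4 (16 genes, chr6:27775257-27861669). Chromosome 1 held 11 genes in block 1 (chr1:149754245-149859515) and a pair in block 2 (H2AC25 and H2BC26), and chromosome 12 held H4C16. All 64 genes with an annotated canonical transcript had a single exon in it. For H2AC18 and H4C2, which lack one, the gene itself was used, and lengths were then 357 to 2224 bp with a median of 489.5 bp. A gene was counted as having HA or H3K4me3 when a region lay within 1 kb of its transcription start site (TSS), the 5′ end of the annotated gene.

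Promoter sequences are shown first because the motifs in them differ between the histone classes. The 250 bases upstream of the canonical TSS were searched for 5 motifs. On both strands these were CCAAT (the box bound by NF-Y), TATAA (the TATA box), ATTTGCAT (the octamer bound by POU2F1) and AAACACA (the H1 box). GTCCG, part of the element of H4 promoters that HINFP binds, was sought on the gene strand. TATAA was present upstream of 58 of 66 histone genes (87.9%) against 15.9% of all 20163 protein coding genes. Some of these, such as H3C3, H3C4 and H2BC9, had it on the opposite strand only. In H4C9 and H2BC6 it lay 239 and 189 bp from the start. CCAAT was present at every H1, H2B and H3 gene and at 16 of 17 H2A genes, at 4 of 14 H4 genes, and at 34.1% of all genes. The octamer was present at 12 of 17 H2A and 12 of 16 H2B genes, at no H1, H3 or H4 gene, and at 1.53% of all genes. AAACACA was present at 6 of 6 H1 genes, at none of the other histone genes, and at 3.70% of all genes. GTCCG was present at 13 of 14 H4 genes, at 1 H2A and 1 H2B gene, and at 17.5% of all genes. The windows were rich in A and T, with a median GC content of 43.2% against 63.2% over all genes. In 10 divergent pairs of H2A and H2B genes the start sites lie 194 to 251 bp apart. The windows of such partners overlap, so 1 match can be scored at both.

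The following stretches are the spacers between the start sites of 3 divergent H2B and H2A pairs, read from the plus strand of GRCh37. H2BC21/H2AC20 (chr1:149858233-149858467) and H2BC11/H2AC11 (chr6:27100575-27100821) had an HA peak in every replicate, while H2AC17/H2BC17 (chr6:27860964-27861202) had neither HA nor H3K4me3. Capitals mark the CCAAT box, the TATA box and the octamer on either strand, and a TTATAA holds overlapping matches on both strands, each of which was counted.
H2BC21/H2AC20: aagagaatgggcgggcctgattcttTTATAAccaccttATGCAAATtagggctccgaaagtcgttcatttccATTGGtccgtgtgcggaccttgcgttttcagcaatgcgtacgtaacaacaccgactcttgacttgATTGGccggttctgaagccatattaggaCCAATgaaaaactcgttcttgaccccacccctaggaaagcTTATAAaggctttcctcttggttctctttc
H2BC11/H2AC11: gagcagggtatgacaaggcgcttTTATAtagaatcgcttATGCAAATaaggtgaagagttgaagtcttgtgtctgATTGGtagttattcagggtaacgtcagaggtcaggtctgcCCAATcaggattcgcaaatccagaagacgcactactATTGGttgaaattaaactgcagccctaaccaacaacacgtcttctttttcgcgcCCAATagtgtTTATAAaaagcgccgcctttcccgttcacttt
H2AC17/H2BC17: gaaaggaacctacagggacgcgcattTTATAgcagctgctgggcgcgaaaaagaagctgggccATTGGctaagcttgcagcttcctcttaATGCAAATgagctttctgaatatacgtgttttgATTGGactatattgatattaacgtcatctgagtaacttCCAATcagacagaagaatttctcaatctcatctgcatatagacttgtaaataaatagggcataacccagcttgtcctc

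All 3 spacers held the octamer once and CCAAT on at least 3 occasions, and their GC contents were 46.4%, 43.7% and 41.4%. The pair without HA held TATAA once, against 4 and 3 matches in the pairs with HA. This contrast did not hold over the other pairs. H2AC14/H2BC14 and H2AC15/H2BC15, with HA, also held 1 match, and H2AC1/H2BC1, without HA, held 2. Of the other pairs of H2A and H2B genes, H2AC25/H2BC26, without HA, held neither TATAA nor the octamer, and H2BC13/H2AC13 and H2AC15/H2BC15, with HA, lacked the octamer.

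Upstream windows of single genes are shown for the H4 promoters that are near-copies of each other and for 1 H3 and 1 H1 gene, each on the strand of its gene. H4C11 (chr6:27791620-27791869) had HA in every replicate and H4C12 (chr6:27799339-27799588, minus strand) had H3K4me3 but no HA peak. H3C2 (chr6:26032328-26032577, minus strand) and H1-4 (chr6:26156307-26156556) were among the genes with the highest HA enrichment of their classes. Capitals mark the same motifs, with GTCCG added in the H4 windows and AAACACA in the H1 window.
H4C11: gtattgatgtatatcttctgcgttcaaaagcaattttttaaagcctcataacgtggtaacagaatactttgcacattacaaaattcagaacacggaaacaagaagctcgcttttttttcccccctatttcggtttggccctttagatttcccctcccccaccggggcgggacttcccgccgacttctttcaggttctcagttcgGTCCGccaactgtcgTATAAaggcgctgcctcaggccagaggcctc
H4C12: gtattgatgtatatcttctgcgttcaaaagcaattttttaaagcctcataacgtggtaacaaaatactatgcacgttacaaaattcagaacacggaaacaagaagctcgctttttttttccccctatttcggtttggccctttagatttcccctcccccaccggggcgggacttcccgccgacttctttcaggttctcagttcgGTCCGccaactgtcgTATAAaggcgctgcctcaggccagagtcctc
H3C2: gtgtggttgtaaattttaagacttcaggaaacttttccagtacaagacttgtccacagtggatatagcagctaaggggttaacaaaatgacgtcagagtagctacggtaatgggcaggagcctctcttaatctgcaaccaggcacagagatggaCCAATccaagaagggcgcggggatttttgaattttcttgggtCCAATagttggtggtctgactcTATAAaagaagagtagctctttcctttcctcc
H1-4: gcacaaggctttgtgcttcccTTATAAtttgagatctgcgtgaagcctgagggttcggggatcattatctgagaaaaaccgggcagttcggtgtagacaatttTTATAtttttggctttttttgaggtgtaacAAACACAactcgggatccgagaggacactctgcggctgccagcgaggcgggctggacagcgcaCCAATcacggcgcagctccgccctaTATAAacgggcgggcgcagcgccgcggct

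The H4C11 and H4C12 windows were identical at 245 of 250 positions (98.0%). Both held 1 TATAA and GTCCG and no CCAAT.

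The depth of the HA libraries was 4.23 to 4.74 fragments per base, as recovered from the values of the peak caller, while that of the H3K4me3 lists is unknown. At the summits beside histone genes 24 to 329 fragments were recovered, with medians of 82, 79 and 88 in replicates 1, 2 and 3. Replicates 1, 2 and 3 held 6401, 9193 and 8933 peaks, the merged list 7216 regions, and the H3K4me3 lists 19102 regions in ProMMP2-3xHA cells and 17130 in WT cells. Of 8 genes of osteosarcoma and mesenchymal cells, 4 (VIM, COL1A1, SPARC and RUNX2) had H3K4me3 in both lines, and of 7 markers of other cell types 1 (EPCAM) did. ALPL, TWIST1 and COL1A2 among the former and PTPRC, CD3E, CDH1, GFAP and ALB among the latter had no region in any list. Share intervals below are 95% exact (Clopper-Pearson) intervals that cover counting error only, and genes that share a region are not independent.

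To determine whether tagged MMP-2 was found at histone genes, HA regions were counted at the 66 start sites. A merged HA region lay within 1 kb of 34 genes (51.5%, 38.9 to 64%), against 28.2% of all protein coding TSSs. In replicate 1 a peak was found at 25 genes, against 20.3% of all TSSs. Replicate 2 had a peak at 33 genes (28.0% of all TSSs) and replicate 3 at 35 (28.6% of all TSSs), so that the replicates had 31 ± 5.29 genes (SD, n = 3). All 3 replicates had a peak at 25 genes (37.9%), against 16.1% of all TSSs. Each replicate thus had peaks at a larger share of histone genes (37.9, 50 and 53.0%) than of all genes. Replicate 1 had no peak at 9 of the 34 genes with a merged region. The 34 genes were served by 19 merged regions, of which 10 served more than 1 gene and the widest served 5. Every one of the 19 merged regions inside the 7 blocks lay at a histone TSS, and 0 lay elsewhere in the blocks.

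H3K4me3 did not single out the histone genes in number. It lay near 37 of 66 genes in ProMMP2-3xHA cells (56.1%, 43.3 to 68.3%), against 57.0% of all TSSs, and near 38 in WT cells (57.6%), against 60.9% of all TSSs. The share of marked genes that also carried HA was higher than over the genome. Of the 37 histone genes with H3K4me3 in ProMMP2-3xHA cells, 33 had merged HA (89.2%, 74.6 to 97%), against 48.8% of the 11495 TSSs with H3K4me3. An HA peak in every replicate was found at 25 of the 37 (67.6%, 50.2 to 82.0%), against 27.9% of those TSSs. With H3K4me3 of the WT cells the share with merged HA was 89.5%, and with windows of 500 bp and 2 kb it was 94.1% and 82.5%. Other genes with low upstream GC content were set beside the histone genes. GC content was taken upstream of the canonical TSS, while HA and H3K4me3 were scored at the annotated gene start. These sites can lie apart, and the other genes were not scored again at the canonical TSS. The part of GC content in the HA shares was not tested. Among other protein coding genes with an upstream GC content under 50%, 6.54% of 3593 had merged HA, and of the 695 with H3K4me3 33.2% did. The 55 histone genes under 50% GC had merged HA in 29 cases, and of the 30 with H3K4me3 28 did (93.3%).

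**Figure D1:**
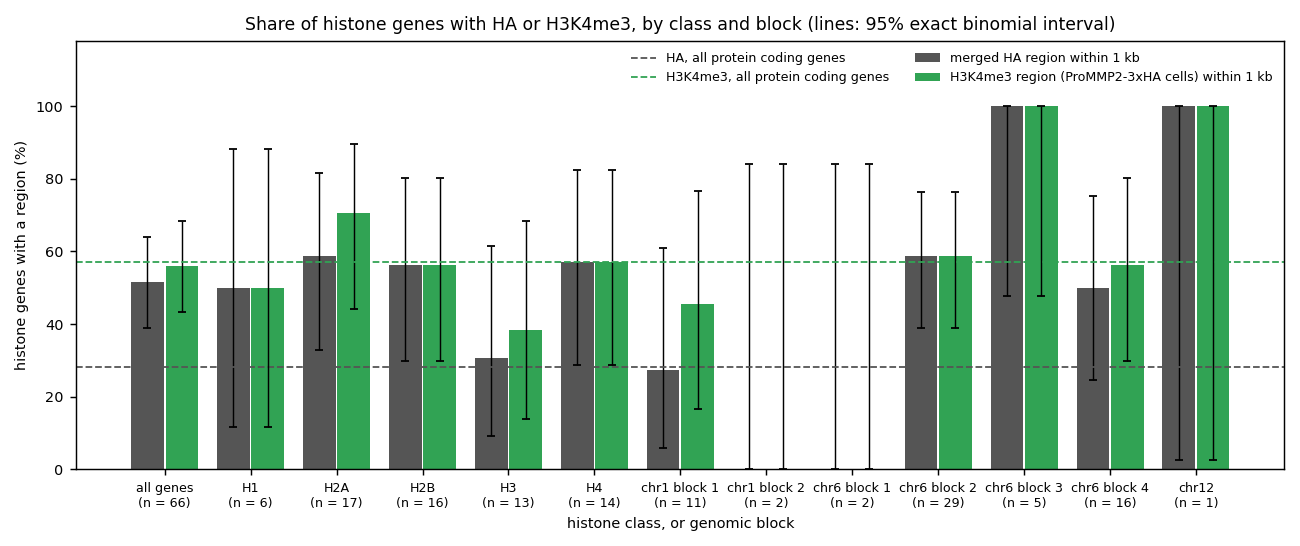
Share of histone genes (%, vertical axis) with a merged HA region (grey bars) or an H3K4me3 region of ProMMP2-3xHA cells (green bars) within 1 kb of the TSS, for all 66 genes, each class and each block, with the number of genes under each bar, 95% exact binomial intervals as lines and the values over all protein coding genes as dashed lines. HA was at 51.5% of histone genes against 28.2% of all genes, while H3K4me3 was at 56.1% against 57.0%.

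By class, merged HA was found at 10 of 17 H2A genes (58.8%, 32.9 to 81.6%), 9 of 16 H2B genes (56.2%, 29.9 to 80.2%), 4 of 13 H3 genes (30.8%, 9.09 to 61.4%), 8 of 14 H4 genes (57.1%, 28.9 to 82.3%) and 3 of 6 H1 genes (50%, 11.8 to 88.2%). The H3 share was the lowest, and the intervals of all 5 classes overlapped. H3K4me3 was also found at the lowest share of H3 genes, 5 of 13, and at the highest share of H2A genes, 12 of 17. In each class at least 80.0% of the genes with H3K4me3 had merged HA, and for H1 (3 of 3) and H2B (9 of 9) all did.

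Blocks were compared next. All 5 genes of chromosome 6 block 3 had HA in every replicate and H3K4me3 in both lines. Block 2 had merged HA at 17 of 29 genes and block 4 at 8 of 16, while the pairs of chromosome 6 block 1 and chromosome 1 block 2 had neither HA nor H3K4me3. Genes with and without HA lay in runs. The 8 neighbours from H2AC8 to H2BC10 (56.0 kb of block 2) had no HA, and H3K4me3 was present at 1 of them (H3C6). The 7 neighbours from H2AC16 to H2BC17 (28.1 kb at the end of block 4) had neither. By contrast, the 6 genes from H1-1 to H2AC4 at the start of block 2 (15.8 kb) and the 6 genes from H2BC13 to H4C11 (16.2 kb) all had merged HA. These genes are not separate regions. H1-1, H3C1 and H4C1 share a region, as do H3C2 and H2AC4. From H2BC13 to H2BC14, 5 genes share 1 region of 7935 bp, which had no peak in replicate 1.

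The other genes of the chromosome 6 region were compared with the histone genes. Between the first and the last histone gene lie 20 other protein coding genes, of which 13 had H3K4me3 in both lines and 2 had merged HA. One of these was ZNF322, a zinc finger gene, with fold enrichments of 4.64, 6.13 and 6.5 in replicates 1, 2 and 3, and the other shares the region of H3C4 and H2AC7. Of the 31 histone genes of chromosome 6 with H3K4me3, 29 had merged HA. The 11 other genes with H3K4me3 and no merged HA were TRIM38, BTN3A2, BTN2A2, BTN3A1, BTN3A3, BTN2A1, HMGN4, ABT1, POM121L2, ZNF391 and ZNF184. H3K4me3 was narrower at the 13 other genes, with a median of 795 bp in ProMMP2-3xHA cells and 1134 bp in WT cells. The medians per gene were 3409 and 4735 bp at the histone genes of chromosome 6. ZNF184 had 2315 and 2546 bp. The part of H3K4me3 width in the HA shares was not tested. SLC17A1 to SLC17A4, HFE, BTN1A1 and PRSS16 had neither.

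Enrichment at histone genes was measured next, as the highest fold enrichment over control that the peak caller gave within 1 kb of each TSS. For genes with a peak the medians of the 3 replicates were 8.01, 10.9 and 9.87, and their mean 9.58 ± 1.45 (SD, n = 3). Over all TSSs with a peak the medians were 4.99, 5.63 and 5.00. Of the 25 histone genes with a peak in every replicate, 22 lay above the 50th percentile and 14 at or above the 95th percentile of the mean fold enrichment over the 3255 such TSSs of the genome. The 14 genes are not 14 separate peaks. H2BC21, H2AC20 and H2AC21 have the same values from shared peaks, as do H2BC4 with H2AC6 and H2BC11 with H2AC11. H4C1 and H2BC5 take their values of replicates 2 and 3 from peaks over H3C1 and H1-4. The 3 genes that lay below the 50th percentile were H2BC6, H4C5 and H4C16. Counting each peak once instead of once per gene lowered the mean of medians to 7.71.

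**Figure D2:**
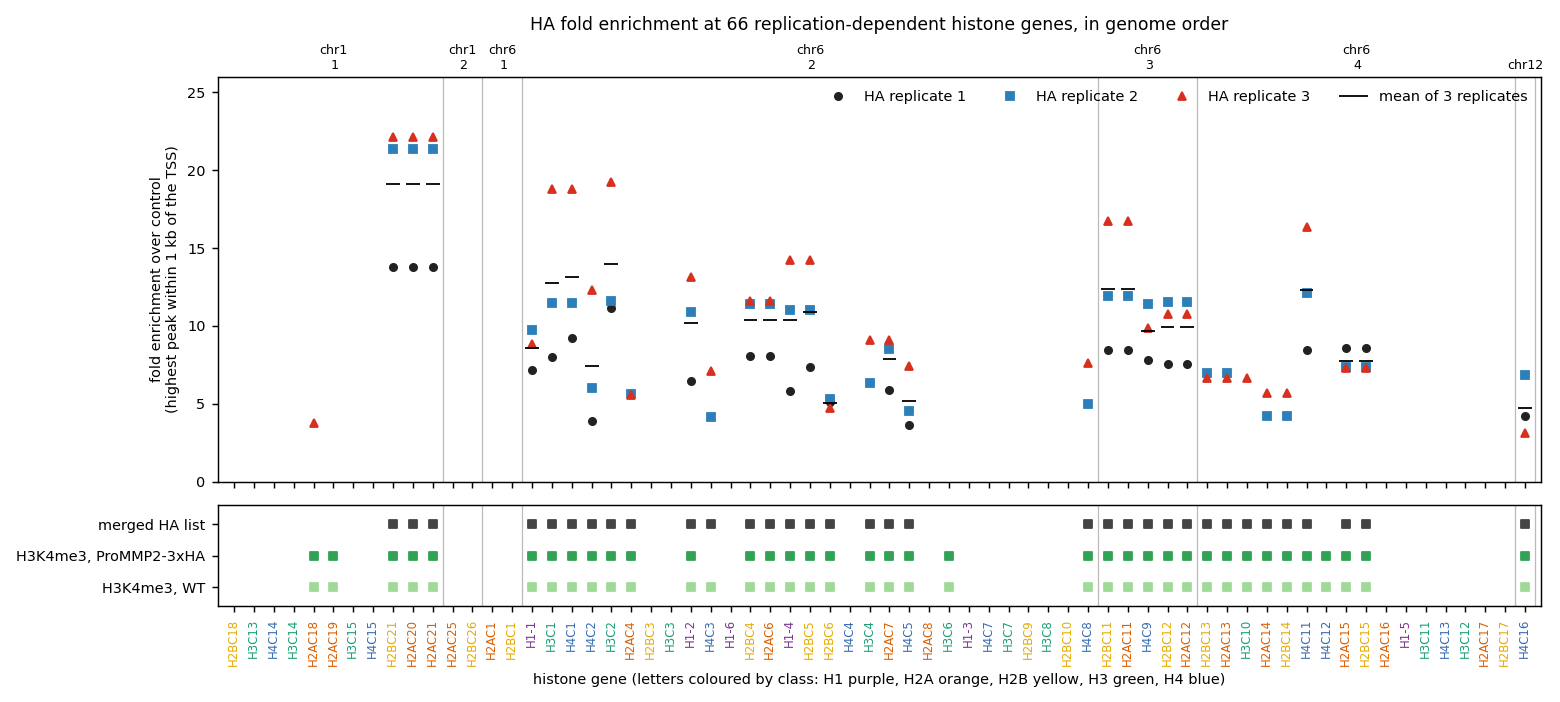
Fold enrichment of the highest HA peak within 1 kb of the TSS (vertical axis, ratio over control) for each of the 66 histone genes in genome order (horizontal axis, names coloured by class, chromosome and block number above), with replicates 1, 2 and 3 as circles, squares and triangles, a line at the mean of genes with a peak in all 3, and squares below for presence in the merged HA list and both H3K4me3 lists. The highest values, 13.8 to 22.1, are at the 3 neighbours H2BC21, H2AC20 and H2AC21, and peaks are absent from H2AC8 to H2BC10 and from H2AC16 to H2BC17.

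H2A and H2B genes were considered first, since 10 pairs of them are divergent, with canonical start sites 194 to 251 bp apart. In 7 pairs both partners had merged HA in 1 shared region, and in 3 pairs neither had. Since the partners lie nearer to each other than the 1 kb window, a region near either is nearly always scored at both. A peak in every replicate was found at 5 of the 10 pairs. The highest enrichment of any histone gene was at H2BC21 and its divergent partner H2AC20, with H2AC21 beside them, which shared the merged region chr1:149857136-149860113. There the fold enrichment was 13.8, 21.4 and 22.1 in the replicates in order, with a mean of 19.1 ± 4.62 (SD, n = 3), from 242, 297 and 329 fragments over a control of 4 fragments in each. The HA libraries were 3.565, 2.807 and 3 times as deep as their control, and the fold enrichment is taken after scaling to the control's depth and adding 1 fragment to both. Replicate 1 was the lowest and both others lay close together, and the region covered all of H2AC20 and H2AC21 and 49.3% of H2BC21. BOLA1, which is no histone gene, has its start site within 1 kb of the same region.

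H2BC11 and H2AC11 shared the region chr6:27099349-27101891 with values of 8.46, 11.9 and 16.7, a mean of 12.4 ± 4.16 (SD, n = 3). H2BC5 had 7.36, 11 and 14.2, a mean of 10.9 ± 3.43 (SD, n = 3), of which the last 2 values came from a peak shared with its neighbour H1-4. In both regions the order of the replicates was the same, with replicate 3 the highest. The pairs H2BC4/H2AC6, H2BC12/H2AC12 and H2AC15/H2BC15 also had a peak in every replicate, with means of 10.4, 9.95 and 7.76. H2AC15/H2BC15 varied least, with 8.62, 7.34 and 7.33.

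The remaining H2A and H2B genes with merged HA had means below 8 or lacked a peak in replicate 1. H2AC7 had 5.90, 8.54 and 9.11, and H2BC6 had 5.14, 5.31 and 4.74. The last value of H2AC7 came from a peak shared with H3C4, with its summit 2184 bp from the H2AC7 start. H2AC4 had no peak in replicate 1 and 5.61 and 5.58 in replicates 2 and 3. The widest merged region at histone genes, 7935 bp (chr6:27775272-27783206), spanned H2BC13/H2AC13, H3C10 and H2AC14/H2BC14. It had no peak in replicate 1, 3 peaks of up to 6.97 in replicate 2 and 5 peaks of up to 6.65 in replicate 3. This region therefore rests on replicates 2 and 3. The gene start of H2BC6 lies 11702 bp from its canonical start, at which there was neither HA nor H3K4me3.

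Among the H3 genes, which encode the histone that MMP-2 can cut, 2 had a peak in every replicate. H3C2 (region chr6:26031667-26033824) had 11.2, 11.6 and 19.2, a mean of 14.0 ± 4.53 (SD, n = 3). H3C1 (region chr6:26017291-26022324) had 8.01, 11.5 and 18.8, a mean of 12.8 ± 5.52 (SD, n = 3). In both the value of replicate 3 stood above both others. H3C4 had 6.34 and 9.11 in replicates 2 and 3 and no peak in replicate 1, and H3C10 had a peak only in replicate 3, of 6.65. The other 9 H3 genes had no HA peak in any list.

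Among the H4 genes, H4C1 shared the 5034 bp region of H1-1 and H3C1 and had 9.22, 11.5 and 18.8, a mean of 13.2 ± 5.02 (SD, n = 3). Its highest peak within reach in replicates 2 and 3 was the one over H3C1, while in replicate 1 the summit lay 117 bp into H4C1. The mean of H4C1 therefore joins values from different sites. H4C11 had 8.47, 12.09 and 16.3, a mean of 12.3 ± 3.94 (SD, n = 3), with summits 418 to 445 bp from its start, past the end of this 389 bp gene. H4C9 had 7.80, 11.4 and 9.87, a mean of 9.68 ± 1.80 (SD, n = 3). These H4 genes lie in blocks 2, 4 and 3 of chromosome 6. H4C2 and H4C5 had lower values in replicate 1 (3.90 and 3.65) than in replicate 3 (12.3 and 7.45). H4C3 and H4C8 had peaks in replicates 2 and 3 only. H4C3 was the sole histone gene with merged HA and no H3K4me3 in ProMMP2-3xHA cells, and WT cells had an H3K4me3 region of 181 bp there. H4C16, alone on chromosome 12, had 4.23, 6.83 and 3.15, a mean of 4.74 ± 1.89 (SD, n = 3), over a control of 6 to 8 fragments against 1.33 to 1.547 over the genome.

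Linker histone genes split evenly. H1-4 had 5.85, 11 and 14.2, a mean of 10.4 ± 4.22 (SD, n = 3). H1-2 had 6.49, 10.9 and 13.2, a mean of 10.2 ± 3.39 (SD, n = 3). H1-1 had 7.17, 9.76 and 8.85, a mean of 8.60 ± 1.32 (SD, n = 3). The other 3, H1-3, H1-5 and the testis histone H1-6, had neither HA nor H3K4me3. All 3 H1 genes with HA had H3K4me3 in both lines, 828 to 4323 bp wide in ProMMP2-3xHA cells.

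Outside chromosome 6 the 11 genes of chromosome 1 block 1 need their sequence beside their values. H4C14, H3C14, H3C15 and H4C15 have copies elsewhere in the assembly for 100% of the 50-base words within 1 kb of their start sites, H2AC19 for 87.7%, H2AC18 for 79.5%, H3C13 for 72.3% and H2BC18 for 64%. With words of nucleosome length, the minimum length of a peak, the share was 16.1% for H3C13 and 19.7% for H2BC18, 87.1% for H2AC19 and 78.4% for H2AC18, and again 100% for the other 4. The deposited lists were made from reads of mapping quality 30 or more, a filter that removes reads placed equally well elsewhere. None of these 8 genes had merged HA. H2AC18 had a peak in replicate 3 only, with a fold enrichment of 3.73, and H3K4me3 of 919 and 1930 bp in ProMMP2-3xHA and WT cells, and the other 6 besides H2AC19 had no region in any list. In H2BC21, H2AC20 and H2AC21 the recurring share was 14.4%, 14.8% and 5.84%, and these were the genes of block 1 with HA. The part of the filter in the missing peaks was not tested. H2AC25 and H2BC26, with 7.28% and 10.7% recurring words, had neither HA nor H3K4me3. With the 10 genes at 20% or more left out, merged HA was at 33 of 56 genes (58.9%) and at 32 of the 33 with H3K4me3 (97%).

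Near H3K4me3 in both lines but with no HA peak in any list were 3 genes, H2AC19, H3C6 and H4C12. H2AC19 had H3K4me3 regions of 439 bp in ProMMP2-3xHA cells and 1026 bp in WT cells. H3C6 had 427 and 730 bp, and its canonical start lies 936 bp from the annotated gene start. H4C12 had 1189 and 1097 bp. These regions were narrower than the median at histone genes, which was 3409 bp in ProMMP2-3xHA cells and 4735 bp in WT cells. H4C12 is the near-copy of H4C11 shown above, and 22.3% and 23.6% of the 50-base words around these genes recur, so that part of the reads of either could be lost to the filter, which was not tested. In all, 28 histone genes had no HA and no H3K4me3 in any list, comprising 3 H1, 5 H2A, 7 H2B, 8 H3 and 5 H4 genes. Among them were H2AC1 and H2BC1, whose products are known from the testis. The 28 genes had TATAA upstream in 24 cases and CCAAT in 24, close to the 32 and 29 of the 34 genes with merged HA.

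The position of HA along the genes was examined next. The summit of the highest peak lay downstream of the start at 19 of 25, 24 of 33 and 24 of 35 genes of replicates 1, 2 and 3. This came to 72.4 ± 3.7% (SD, n = 3), against 62.9, 63.9 and 65.4% of all TSSs. The median position was 145 to 165 bp into the gene in the 3 replicates, against 114 to 127 bp over all TSSs. The range was -1014 to 913, -1694 to 900 and -1570 to 2184 bp in replicates 1, 2 and 3. Within 500 bp of the start lay 20 of 25, 27 of 33 and 21 of 35 summits. A summit shared by neighbours is scored at each, as in replicate 1 at H2BC21 (-370 bp), H2AC20 (134 bp) and H2AC21 (913 bp). In H4C3 the summits of replicates 2 and 3 were 148 and 145 bp from the start, and in H4C16 the 3 summits were at 148, 137 and 167 bp. In H3C2 they were at 145, 172 and 152 bp, and in H4C2 at 192, 193 and 227 bp. The spread was wider in H4C5, with 284, 244 and 196 bp. A TSS base under a peak was rarer, at a mean of 18.3 genes per replicate and at 11 in every replicate.

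**Figure D3:**
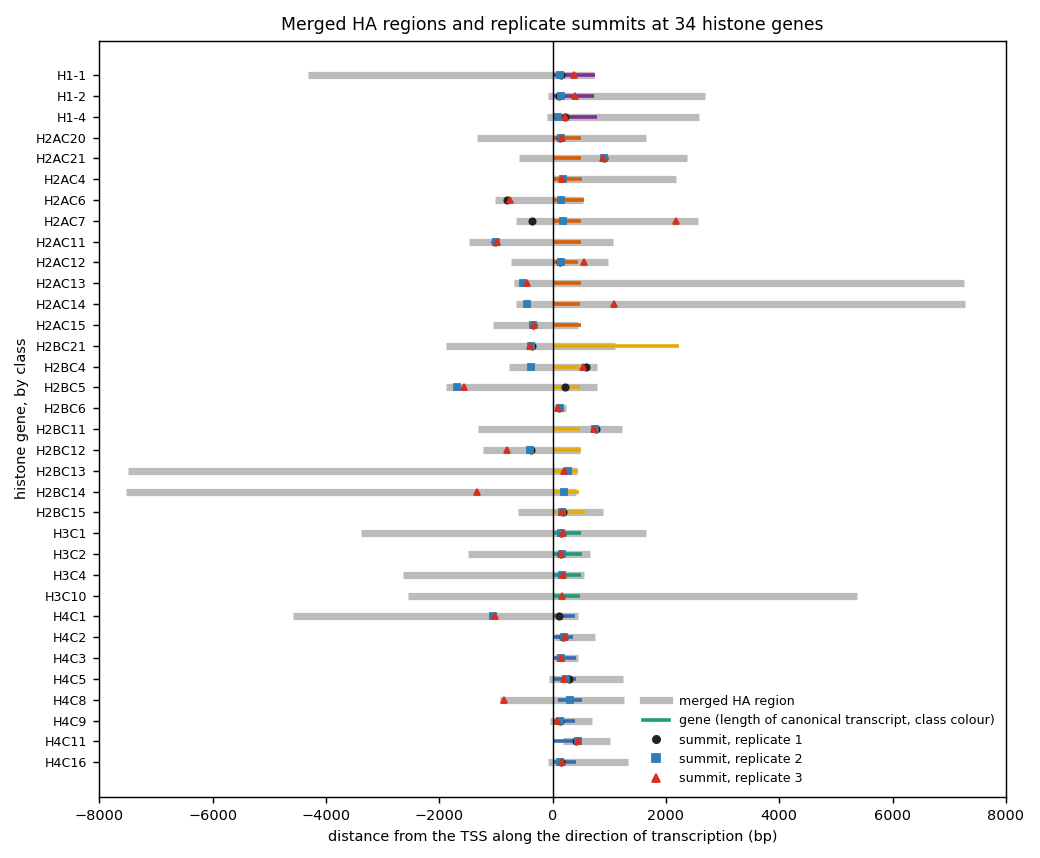
Merged HA regions (grey) of 34 histone genes, drawn by distance from the TSS along the direction of transcription (bp, horizontal axis), with the canonical transcript in the colour of its class and the summit of the highest peak within reach in replicates 1, 2 and 3 as circles, squares and triangles. The canonical transcript of H2BC6 starts 11702 bp downstream and is off the scale, and the same 7935 bp region is drawn for each of the 5 genes it spans.

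The extent of HA over these short genes was measured as well. Merged HA covered a median of 97.4% of the annotated gene and 100% of the canonical transcript at the 34 genes, and 22 of 34 canonical transcripts were covered in full. Other protein coding genes with canonical transcripts of 357 to 2224 bp had merged HA in 155 of 1231 cases (12.6%), with a median of 24% covered and 39 of 155 covered in full. The lengths within that range were not matched. Regions at histone genes were also wider, with a median of 1721 bp over 19 regions against 423 bp over 7197 other merged regions. A width over 2 kb was found in 9 of the 19 (47.4%) and in 7.24% of the others. No regions of the merged list lay closer to each other than 4032 bp anywhere in the genome, and histone genes lie close together, so a wide region can hold the peaks of several genes. The part of this spacing in the widths was not tested.

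The replicates were then compared with each other at histone genes. At the 25 genes with a peak in every replicate, replicate 3 had the highest fold enrichment at 17 (68.0%), against 25.8% of the 3255 TSSs of the genome. Counted by region to avoid shared peaks, replicate 3 was the highest at 11 of 16 regions (68.8%), against 839 of 3762 other merged regions (22.3%). The median ratio of replicate 3 to replicate 2 was 1.14 at the 16 histone regions and 0.829 at the others, and that of replicate 3 to replicate 1 was 1.66 and 1.05. Among 418 other regions over 2 kb replicate 3 was the highest at 18.2%, against 7 of 7 at histone genes. It was the highest at 24.8% of 109 other genes with a GC content under 50% upstream of the canonical TSS, against 14 of 21 histone genes. The 5 regions at which replicate 3 was not the highest were those of H4C16, H2BC6, H4C9, H2BC12/H2AC12 and H2AC15/H2BC15. With 3 replicates no two-sided sign test can fall below 0.25, and no cause of the order was tested.

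**Figure D4:**
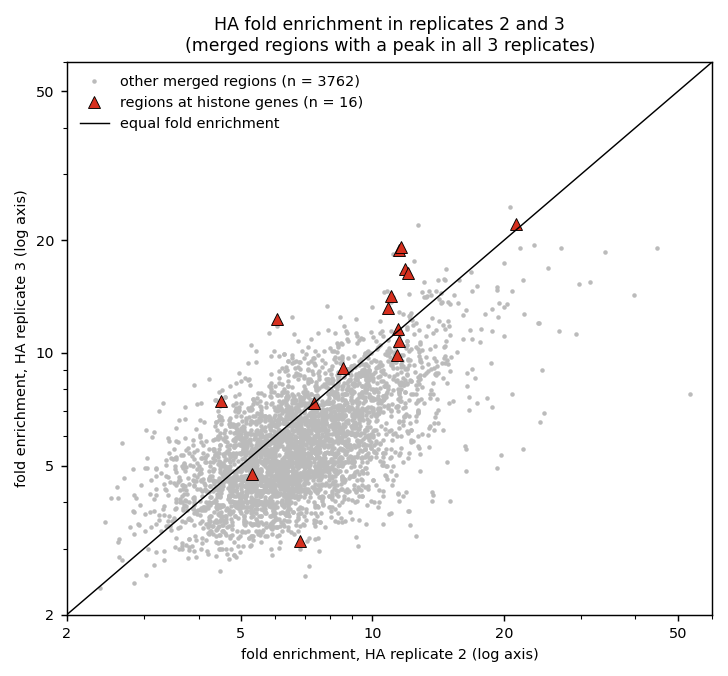
Fold enrichment in HA replicate 2 (horizontal axis, log scale) and replicate 3 (vertical axis, log scale) at merged regions with a peak in all 3 replicates, with 16 regions at histone genes as red triangles, 3762 other regions as grey points and the line of equal values. The histone regions have a median ratio of replicate 3 to replicate 2 of 1.14, against 0.829 for the others, and lie mostly on or above the line.

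H3K4me3 regions at histone genes were wide in both lines. The median width per gene was 3409 bp in ProMMP2-3xHA cells and 4735 bp in WT cells, against 1445 and 1886 bp over all marked TSSs. Histone genes shared regions, with 24 distinct regions at 37 genes in ProMMP2-3xHA cells. Of these regions 11 served more than 1 gene, and each was counted at every gene it served. The WT region was the wider at 36 of 37 histone genes (97.3%), against 93.2% of all, and the median ratio of WT to ProMMP2-3xHA width was 1.29, against 1.28 of all. Histone genes thus took the same ratio as the genome. The exception was H4C12, with a ratio of 0.923. The largest difference was at H4C9, H2BC12 and H2AC12, which shared a region of 9313 bp in WT cells and had regions of 2041 and 4311 bp in ProMMP2-3xHA cells. At H2AC14/H2BC14 the regions were 865 and 3272 bp. Each line had 1 library, so these differences have no replicate check.

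**Figure D5:**
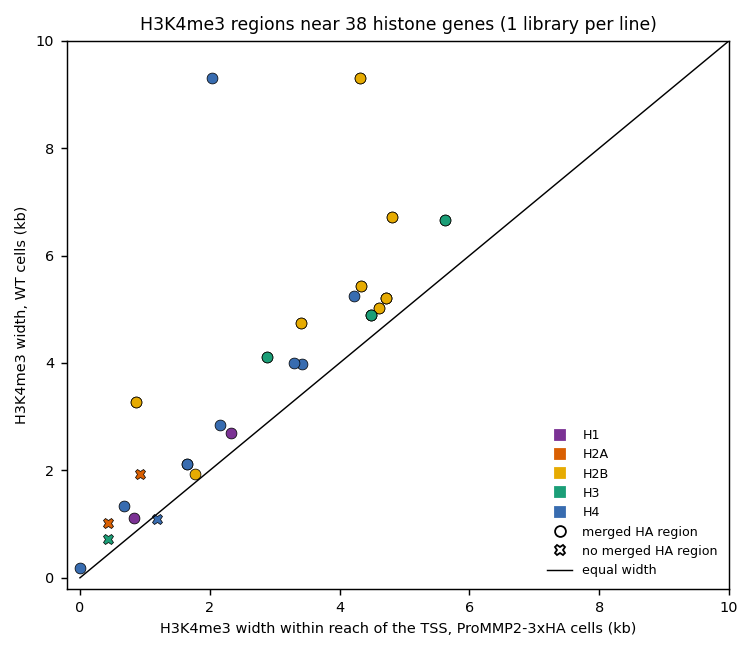
Width of the H3K4me3 regions within 1 kb of the TSS in ProMMP2-3xHA cells (horizontal axis, kb) and WT cells (vertical axis, kb) at the 38 histone genes with a region in either line, coloured by class, with circles for genes with a merged HA region and crosses for genes without; points of genes that share their regions coincide. All but H4C12 lie on the side of the wider WT region, with a median ratio of 1.29.

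Genes that make, process or escort these histones were scored in the same way. Of 14 genes of histone gene transcription, all had H3K4me3 in both lines and 6 had merged HA. The highest means were at NFYC (5.87, 8.90 and 8.50), a subunit of the CCAAT binding factor NF-Y, POU2F1 (5.24, 9.48 and 7.89), which binds the octamer, and the cell cycle factor E2F4 (4.52, 6.83 and 4.70). NPAT, the coactivator of histone genes driven by cyclin E, had peaks in replicates 1 and 3 of 4.50 and 6.14. HINFP, CDK2, NFYB, YY1, COIL, E2F1, CASP8AP2 and CCNE2 had no merged HA, although YY1 had peaks in replicates 2 and 3 of 4.45 and 5.26. Of 12 genes for the 3′ processing and turnover of histone mRNA, all had H3K4me3 and 3 had merged HA, namely NCBP1 (5.49, 5.01 and 4.43), SRRT (3.43, 4.78 and 3.48) and the stem-loop binding protein SLBP (4.84 in replicate 3 only). LSM10, LSM11, CPSF2, CPSF3, UPF1, SYMPK, ZNF473, ERI1 and CSTF2 had none. These shares were 42.9% and 25%, against 89.2% of marked histone genes and 48.8% of all marked TSSs.

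Of 19 histone chaperone genes, all had H3K4me3 and 11 had merged HA (57.9%). The highest means were at HIRA (9.10, 8.30 and 10.1), which deposits H3.3, NASP (6.09, 8.96 and 7.33), which holds soluble H3 and H4, and NAP1L4 (5.24, 8.88 and 4.70), of the H2A and H2B chaperones. SSRP1, SUPT16H, NAP1L1, CHAF1A, CHAF1B, HAT1, DAXX and RBBP7 had no merged HA. Of 23 replication-independent and other histone genes, 11 had H3K4me3 and 9 of these had merged HA. The highest means were at the linker histone H1-10 (12.5, 17.6 and 10.7) and at H2AX (11.7, 14.0 and 8.71), which marks DNA breaks when phosphorylated. In both genes replicate 2 was the highest, and replicate 3 was the highest at 4 of the 8 genes of this list with a peak in every replicate. H2AJ and MACROH2A1 had H3K4me3 and no merged HA, and H3-4, H3-5, H3-7, H3Y1, H1-7, H1-8, H2BN1, H2BK1, H2AP, H2BW1, H2BW2 and H2AB1 had neither.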

How the data were processed

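Native ChIP-Seq of U2OS cells gave 6 peak lists, 3 of the HA replicates, 1 of the merged HA replicates and 1 of H3K4me3 in each line. By the study's methods, the authors trimmed reads with Trim Galore 0.6.0, aligned pairs to hg19 (GRCh37) with Bowtie2 2.3.5.1, kept a mapping quality of 30 with SAMtools 1.9, removed duplicates with Picard and called peaks with MACS2 3.0.0a6 at a q-value of 0.05 and a minimum length of 147 bp. Versions are those of the submitters' processing notes. The deposited replicate lists give positions, a score, the fold enrichment as a ratio to the local background and the −log10 of p and q. The merged HA and H3K4me3 lists deposited by the authors join narrow and broad calls and hold positions only, and no regions of the merged HA list are closer than 4032 bp. An HA control immunoprecipitation was the control, by the names in the replicate lists.

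Genes came from GENCODE release 44 lifted to GRCh37. Members were found by symbol, and 2 older symbols through RefSeq. Of 69 RefSeq symbols that fit the rule, 3 (H2BC7, H2BC8 and H4C6) were not analysed here. The members, gene lists and comparisons were chosen with earlier results of these data known, so no test was run over them, and counts stand beside the same count over all protein coding genes. Lines of a replicate list with 1 interval were taken as 1 peak with its highest fold enrichment. Because MACS2 derives the fold enrichment and p from 1 pileup, fragments and control were solved for at each summit and resolved for 96.1 to 97.7% of them. Recurring 50-base words were counted exactly over the assembly on both strands. The scripts used Python 3.11.15, numpy 2.4.6, pandas 2.3.3, scipy 1.17.1 and matplotlib 3.10.9, were tested on simulated data, and window counts were checked against bedtools 2.31.1. Values in every replicate are given for the 3 members of each class with the highest mean fold enrichment among those with a peak in every replicate, for every member outside chromosome 6, and for members with H3K4me3 but no HA. Of the other lists, the 3 highest genes and those with no merged HA are named, except for a few genes that are not reported here. Further genes named as examples (NPAT, SLBP, and the other histone genes with values) were chosen after their values were seen.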

Additional observations from a re-analysis of the deposited data

How the results depend on the processing

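Of 65 alternative values for 10 results, 61 stayed within the limits set for them. They were 1.5 times for gene counts, the exact interval for the share with HA, and 1 percentage point for the share of the gene covered. For the means over replicates and for the width ratio the limit was 1 SD. The SD of the width ratio, 0.824 around 1.29, is not over replicates, since each line had 1 library. That limit is wide, and equal widths in both lines would have stayed within it. The limit for counts is wide, and it took in 25 and 30 genes with H3K4me3 over the TSS base in ProMMP2-3xHA and WT cells, against 37 and 38 within 1 kb, and 25 genes in the list of replicate 1 against 34 in the merged list. When a peak had to overlap the TSS base, the mean number of histone genes with an HA peak per replicate was 18.3 and the number with one in every replicate 11, against 31 and 25. Counting each peak once gave a mean of medians of 7.71, and taking the canonical transcript as the gene body gave 100% covered. Leaving out each HA replicate in turn gave 29 to 34 genes per replicate, 25 to 33 genes with a peak in every replicate left, a mean of median fold enrichments of 8.94 to 10.4 and 70.7 to 74.4% of summits downstream. Without replicate 1 the number found in every replicate was 33. The alternatives that left out genes with recurring sequence or counted each peak once, 8 values in all, were chosen after seeing the data. No paired analysis was possible because the groups share replicate number 1 only and the results come from no test. Depth sets what can be seen, since 24 fragments was the fewest at any summit beside a histone gene, and absence from a list does not show absence of HA. The H3K4me3 lists have 1 library per line and no depth.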
